A study of Rattus norvegicus with 4 samples.

Results

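Cells of the embryonic rat cerebral cortex were cultured on the hydrogel SFMA and on 3 more whose names add letters to it, N-SFMA, L-SFMA and NL-SFMA, and the comparison described here is that of NL-SFMA with L-SFMA, which sets N beside no N where L is present. It takes in 2 of the 4 libraries of the series, 1 per hydrogel, and 12064 of the 18755 genes listed, chosen because their level reached 1 FPKM (fragments per kilobase of gene model, scaled to the library's reads) in either of these libraries. The question of the series is by what genes a hydrogel that carries a cue of cell-cell contact favours the growth of neurons. All 4 groups came from Sprague Dawley embryos at embryonic day 16 and were grown for 24 h in Neurobasal with B27, at 100000 cells per well in 5 parallel wells per hydrogel. The groups differ in their labels only by the hydrogel, and the treatment labels spell the names of these groups L@SFMA and NL@SFMA. The sources used here give neither the meaning of N and L nor whether RNA from separate wells was combined. With 1 library a side there is no spread between replicates, so no p-value is given, and every difference below describes 2 libraries.

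Cortex at this stage holds radial glia, the progenitors that line the ventricle, and the neurons they give rise to. Notch ligands on newborn neurons keep their neighbours in the progenitor state through the Hes repressors, while proneural factors such as Neurog2 drive cells out of it. Young projection neurons then extend neurites on a scaffold of tubulins and microtubule-associated proteins, and touch their neighbours through cadherins, which bind catenins inside the cell, and through adhesion molecules of the immunoglobulin family. Mitochondria carry a small genome of their own that encodes core subunits of the respiratory chain, whereas the other subunits and the proteins that import and assemble them come from nuclear genes.

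L-SFMA had a summed read count of 16340264 and NL-SFMA of 14172205, and 17156 and 16399 genes had a read. Over the 4 libraries the sums ran from 14172205 to 17553098. A gene listed at 0 may hold up to 3 reads by chance, which is 0.184 CPM (counts scaled to the library's sum) in L-SFMA and 0.212 CPM in NL-SFMA. This floor and the 95% counting intervals given with folds cover counting error only, since amplified reads that carry no molecular identifier cannot be counted as independent molecules. All 26 listed genes of excitatory cortical neurons and all 34 of radial glia and progenitors were among the genes tested. So were 24 of 27 markers of inhibitory interneurons, 17 of 20 of astrocytes and 16 of 28 of microglia and chemokines. For the oligodendrocyte lineage 8 of 15 were tested, and for erythroid cells 7 of 21. The lists were written with earlier results of these data known, so these counts do not test the label of cortical cells. Of the markers of endothelial cells and pericytes 4 of 20 were tested, and of meningeal fibroblasts 1 of 13, with Aldh1a2 and Slc6a13 at 0 in both libraries.

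Differences followed the length of the gene model. As measured, on the log2(FPKM + 1) scale, the median difference of NL-SFMA minus L-SFMA was -0.44 for 797 genes under 1000 bases, -0.39 for 2435 genes of 1000 to 2000 bases, -0.16 for 5080 genes of 2000 to 4000 bases, 0.09 for 3107 genes of 4000 to 8000 bases and 0.24 for 645 longer genes. Short genes were thus lower and long genes higher in NL-SFMA, and the read-weighted median model length was 3438 bases in L-SFMA against 3626 in NL-SFMA. A lowess curve of the difference on log2 length was subtracted from each gene. The Pearson correlation of the difference with log2 length, across genes, which are not independent replicates, went from 0.29 to -0.02. Unless "as measured" is written, log2 differences below have this curve subtracted. They say how far a gene lies from genes of like length, while FPKM values and folds are as measured. Folds are ratios of CPM without a pseudocount. Where 4 levels are given they follow the order SFMA, N-SFMA, L-SFMA and then NL-SFMA, and where 2 are given L-SFMA comes before NL-SFMA.

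**Figure D1:**
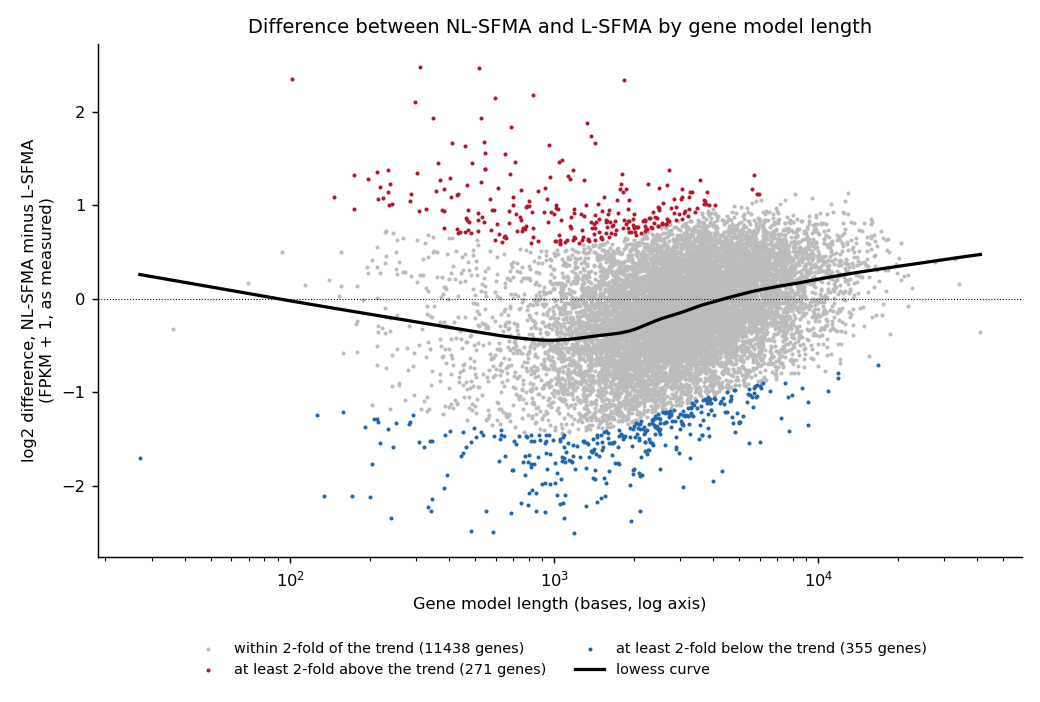
Each point is 1 of the 12064 genes, by gene model length in bases (log axis) and log2 difference of NL-SFMA minus L-SFMA as measured (FPKM + 1), and the line is the lowess curve that was subtracted. The curve is lowest near 1000 bases and climbs towards long genes, and the 271 coloured genes above and 355 below it lie at least 2-fold from it.

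At least 2-fold from the curve, 271 genes (2.25% of those tested) were higher in NL-SFMA and 355 (2.94%) were lower. As measured the counts were 108 (0.895%) higher and 851 (7.05%) lower, and the genes called both with and without the removal numbered 98 upward and 338 downward. The counting interval of the fold lay wholly beyond the curve for 264 of the 271 and 349 of the 355. These genes were called from the same counts for lying 2-fold from the curve, so the shares do not test the calls. Called genes had shorter models, with a median of 1269 bases for the higher and 2010 for the lower genes, against 2998.5 for all genes tested. Among the 797 genes under 1000 bases 108 were called higher and 89 lower, and among the 645 of 8000 bases or longer 0 were called higher and 7 lower. The higher genes also included 142 rows that carry an identifier or a pseudogene name rather than an assigned symbol, against 39 of the lower. Levels were modest, with a median of 10.2 FPKM in NL-SFMA for the higher genes and 17.95 FPKM in L-SFMA for the lower ones.

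Among genes with a symbol and at least 5 FPKM, the 2 largest differences upward were in transcripts of the mitochondrial genome. All 12 mitochondrially encoded genes that could be tested were at least 2-fold above the curve, with a median of 2.12 (1.69 as measured); the 13th, Mt-atp8, had 2 reads in L-SFMA and 0 in NL-SFMA. Mitochondrially encoded genes held 2.68, 2.23, 2.33 and 5.89% of the reads in the 4 libraries, so the other 3 libraries lay close together and NL-SFMA stood above them. Mt-nd6, a complex I subunit, was at 177, 221, 239 and 1324 FPKM in the 4 libraries, a 5.53-fold difference between NL-SFMA and L-SFMA (5.27 to 5.80). Mt-nd5, another complex I subunit, was at 291, 400.2, 457 and 2314 FPKM in the same order, or 5.07-fold higher (4.97 to 5.16). Mt-nd5 and Mt-nd6 lie beside each other on opposite strands, and their values may share reads, since no source used here gives the strand setting of the counting.

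The other complex I subunits followed, with Mt-nd4l 4.32-fold (3.88 to 4.82), Mt-nd3 3.82-fold (3.68 to 3.96), Mt-nd4 3.33-fold (3.29 to 3.38), Mt-nd1 3.12-fold (3.08 to 3.17) and Mt-nd2 2.75-fold (2.71 to 2.80) higher. Among the cytochrome oxidase subunits the differences were unequal. Mt-co2 went from 2176 FPKM in L-SFMA to 7776 in NL-SFMA (3.57-fold, 3.52 to 3.63), Mt-co1 from 6239 to 13229.6 (2.12-fold, 2.11 to 2.13) and Mt-co3 from 3863 to 6592 (1.71-fold, 1.69 to 1.73). Mt-cyb, the complex III subunit, was 2.43-fold higher (2.41 to 2.46) and Mt-atp6, an ATP synthase subunit, 2.52-fold (2.48 to 2.56). Folds within this genome therefore ran from 1.71 to 5.53, and their counting intervals are narrow beside that range. NL-SFMA was the highest of the 4 libraries for each of the 12 genes.

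**Figure D2:**
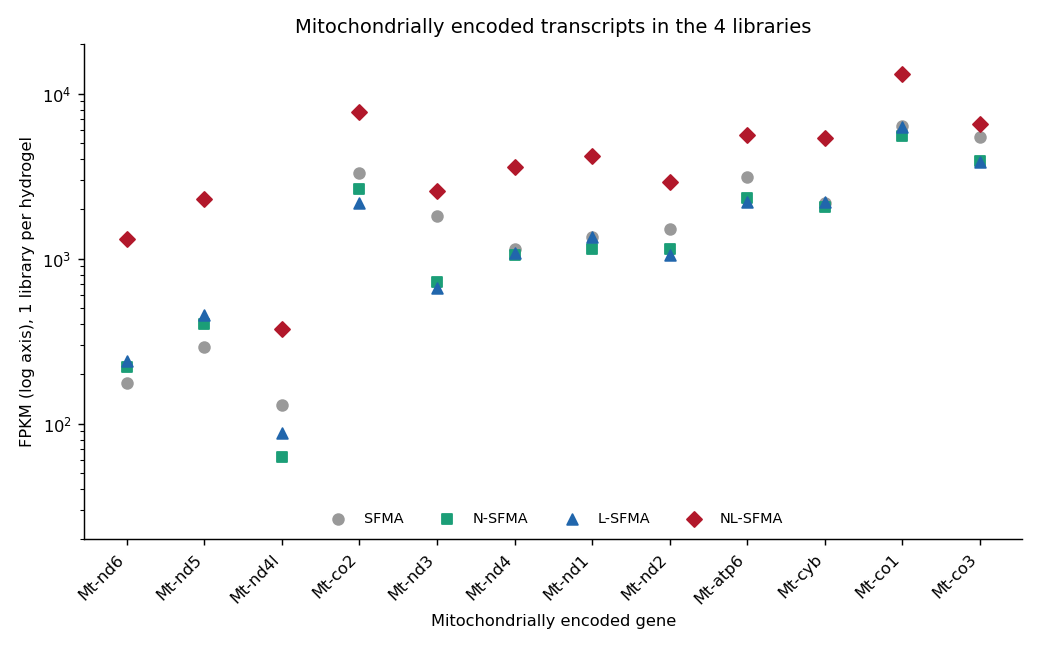
FPKM (log axis) of the 12 mitochondrially encoded genes tested, 1 symbol per library, ordered by the difference between NL-SFMA and L-SFMA with the length trend removed. NL-SFMA lies above the other 3 libraries for every gene, from Mt-nd6 at 1324 FPKM against 239 in L-SFMA to Mt-co3 at 6592 against 3863.

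Lists of nuclear genes for mitochondrial proteins had medians below the curve. Nuclear-encoded complex I subunits had a median of -0.30 (-0.66 as measured, -0.48 with no filter on low values) over 34 tested, with 3 at least 1.5-fold higher and 7 lower; over all genes tested 11.4% were at least 1.5-fold higher and 13% lower, and these shares are the background for every list count below. Ndufb6 was at 34.1 FPKM in L-SFMA and 8.87 in NL-SFMA, and Ndufa13, another accessory subunit, at 84.8 and 25.6 FPKM. Ndufb5 went the other way, from 24.2 to 32.9 FPKM (0.86), as did Ndufa1, taken up after its values were seen, which had 12 reads in L-SFMA and 51 in NL-SFMA and was the member at least 2-fold higher (1.69). For complexes II to V the median was -0.03 (-0.44 as measured), yet 11 of 36 lay at least 1.5-fold lower and 2 higher. The ATP synthase subunit Atp5f1e was at 735, 433, 374 and 161 FPKM in the 4 libraries (-1.09), and the oxidase subunit Cox6b1 at 406, 271, 230 and 87.5 FPKM (-1.03). Cox7b was higher in NL-SFMA than in L-SFMA (34.0 against 21.7 FPKM, 1.01). The list is thus wide, with members at least 2-fold from the curve on both sides.

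Proteins that bring other proteins into mitochondria were lower as a list, with a median of -0.29 (-0.61 as measured), 6 of 29 at least 1.5-fold lower and 1 higher. Timm13, a chaperone of the space between the membranes, was at 219, 142, 130 and 25.9 FPKM in the 4 libraries, or 5.00-fold lower in NL-SFMA than in L-SFMA (4.30 to 5.83). Its relative Timm10 was at 22.6 FPKM in L-SFMA and 4.16 in NL-SFMA, and Tomm7, a small subunit of the outer membrane channel, at 14.3 and 2.30 FPKM. For all of these NL-SFMA was the lowest of the 4 libraries. Mitochondrial ribosomal proteins had a median of -0.11 (-0.47 as measured) with 14 of 68 at least 1.5-fold lower and 6 higher. Mrps26 was lower (36.9 FPKM in L-SFMA, 6.47 in NL-SFMA) and Mrps10 higher (20.7 and 39.6 FPKM), so members of the same ribosome lay on opposite sides.

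**Figure D3:**
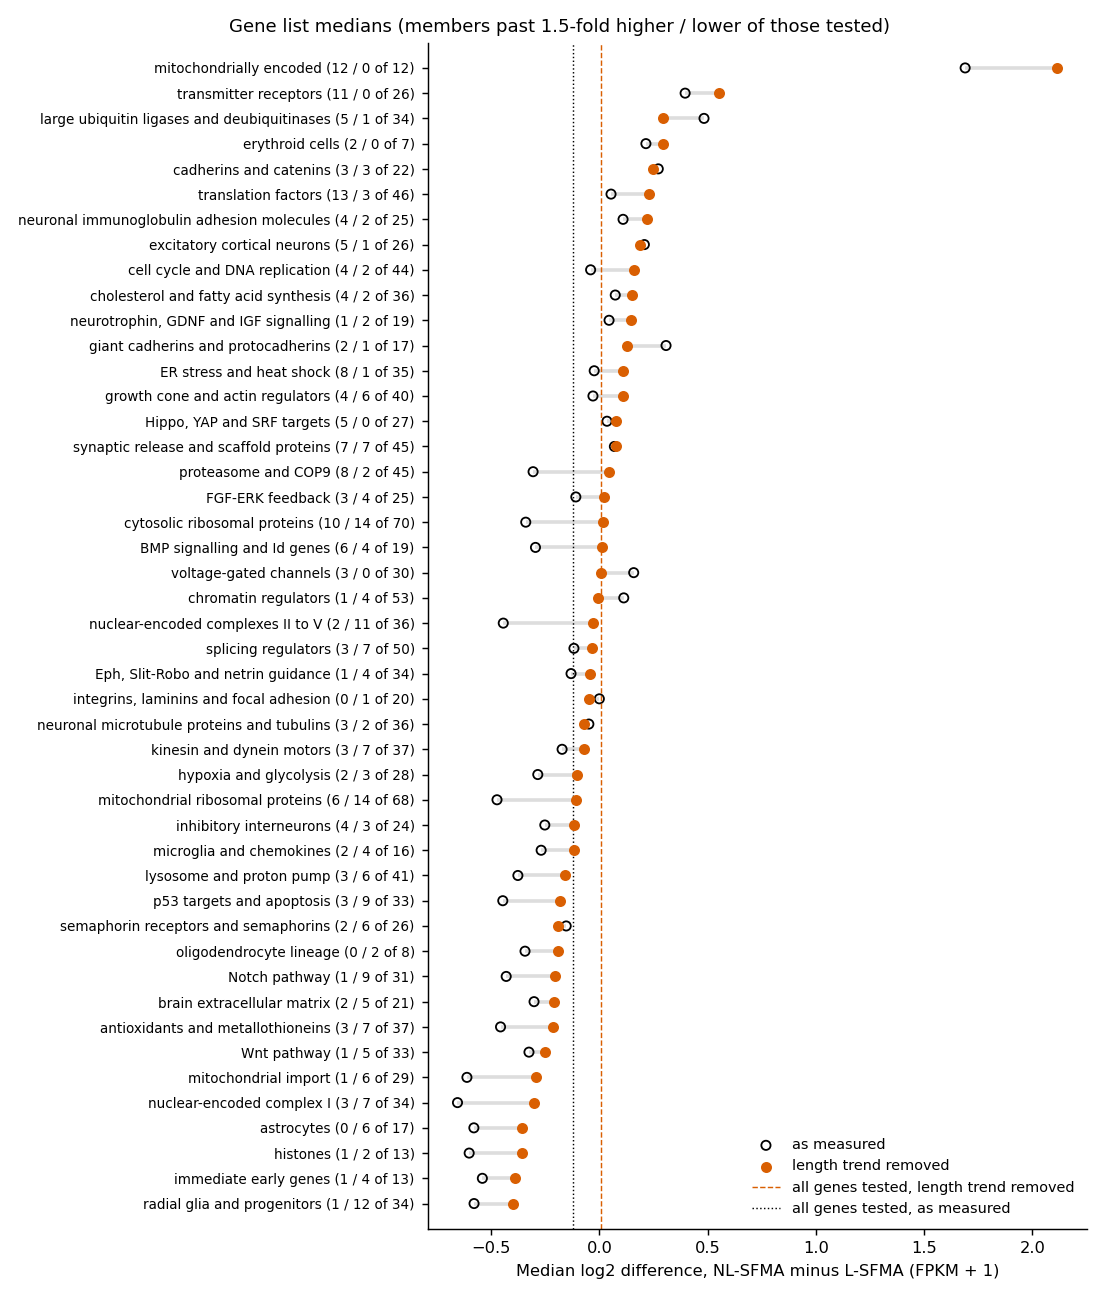
Median log2 difference of NL-SFMA minus L-SFMA (FPKM + 1) for 46 gene lists with at least 5 members tested, as measured (open) and with the length trend removed (filled), with the numbers of members at least 1.5-fold higher and lower after removal. The mitochondrially encoded list lies apart at 2.12, with the trend removed transmitter receptors are at 0.55 and radial glia and progenitors at -0.40. As measured, nuclear-encoded complex I is lowest at -0.66.

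Among nuclear genes with a symbol and at least 5 FPKM, the largest differences upward were those of Y_RNA and the tubulin gene Tubb2b. Tubb2b, which encodes a beta-tubulin of young neurons, was at 23.5, 25.9, 15.8 and 52.5 FPKM in the 4 libraries, which is 3.32-fold higher than in L-SFMA (2.94 to 3.74). Y_RNA, a small RNA gene with many like copies, rested on 5 reads in L-SFMA and 28 in NL-SFMA. The ribosomal protein genes Rpl9 (5.01 FPKM in L-SFMA, 15.5 in NL-SFMA) and Rps15al4 (25.0 and 70.1 FPKM) complete the 12 largest differences, of which the other 8 are mitochondrially encoded. Reads of Tubb2b, Rpl9 and Rps15al4 can be shared with near-identical paralogs or pseudogenes, so their values are uncertain. The next nuclear genes, taken up after their values were seen, were Cryab, a small heat shock protein (3.17 FPKM in L-SFMA, 9.30 in NL-SFMA, 1.75), Rpl39 (49.7 and 138 FPKM, 1.74), the GABA receptor subunit Gabra3 (1.54), the J-domain cochaperone Dnajb14 (3.75 and 8.89 FPKM, 1.43), Chchd2l3 (1.42), Vstm2a (1.41), Ccni and Lmbrd2 (6.36 and 16.8 FPKM, 1.35). Ccni, which encodes cyclin I, had by far the most reads of these, at 222, 281, 229 and 532 FPKM in the 4 libraries (2.32-fold, 2.27 to 2.38).

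Downward, Pfdn6, Gadd45g and Bbc3 lay furthest from the curve by the same rule. Pfdn6, a subunit of the prefoldin chaperone, had 84 reads in L-SFMA and 6 in NL-SFMA. Gadd45g, which responds to stress and holds the cell cycle, was at 50.6, 32.1, 43.0 and 6.71 FPKM in the 4 libraries, or 6.41-fold lower than in L-SFMA (5.26 to 7.87). Bbc3, which encodes the death-promoting protein PUMA, was at 28.0, 15.0, 24.4 and 3.88 FPKM in that order (6.29-fold lower, 5.13 to 7.77). Apoe, the lipid carrier of glia, was at 12.8, 8.43, 17.7 and 2.86 FPKM (6.17-fold lower, 4.92 to 7.83). For Pfdn6, Gadd45g, Bbc3 and Apoe NL-SFMA was the lowest library and L-SFMA lay within the range of, or above, the libraries without L.

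The rest of the 12 lowest were Uqcc2, an assembly factor of complex III (47.6 FPKM in L-SFMA and 9.05 in NL-SFMA), the mitochondrial micropeptide gene Mtln (72.7 and 16.1 FPKM), Edf1 (23.0 and 5.22 FPKM), Timm13, Mrps26, the COP9 signalosome subunit Cops9 (85.5 and 16.7 FPKM), Hypk (13.8 and 2.67 FPKM) and Tomm7. Abundant genes, taken up after their values were seen, were also among the lower ones. Tmsb10, which binds actin monomers, was at 1543, 1179, 1024 and 233 FPKM in the 4 libraries, or 4.40-fold lower than in L-SFMA (4.27 to 4.53). Ptms went from 955 FPKM in L-SFMA to 243 in NL-SFMA and Marcksl1, a membrane and actin regulator of growth cones, from 401 to 99.5 FPKM. Mdk, the heparin-binding growth factor midkine, was at 837, 357, 416 and 97.7 FPKM in the 4 libraries and 4.25-fold lower in NL-SFMA than in L-SFMA (3.99 to 4.53). Reads of Tmsb10 may be shared with processed pseudogenes. In these 4 abundant genes L-SFMA was closer to N-SFMA than to NL-SFMA.

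For cell adhesion and neurite growth, 8 genes stand for the question of the series. The neural cadherin Cdh2 was at 63.2, 83.7, 97.3 and 154 FPKM in the 4 libraries, 1.59-fold higher in NL-SFMA than in L-SFMA (1.54 to 1.64) and 0.66 above the curve. Ctnnb1, the gene of beta-catenin, which binds cadherins inside the cell, had levels of 253, 259, 263 and 322 FPKM (0.37). The microtubule proteins Map2 (61.1 FPKM in L-SFMA and 98.0 in NL-SFMA, 0.51) and Dcx (161 and 266 FPKM, 0.54) were higher by similar amounts, and the growth cone protein Gap43 (70.7 and 79.7 FPKM) lay 0.57 above genes of its length. Ncam1 (79.5 and 105 FPKM) lay 0.22 above the curve, while L1cam (51.2 and 47.4 FPKM) lay 0.19 below it, at -0.19. Tubb3, a tubulin gene of neurons, had 1957 and 1659 FPKM, which is -0.24 as measured and 0.13 after removal of the length trend, and its sign also turned with no filter on low values (-0.03) and with a trend over expression removed as well (-0.12). None of these 8 reached 2-fold.

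As lists, adhesion genes were spread around the curve. Cadherins, catenins and nectins had a median of 0.25 (0.16 with a pseudocount of 5 FPKM) with 3 of 22 at least 1.5-fold higher and 3 lower; Cdh2 was among the higher and the nectins Nectin2 (15.9 FPKM in L-SFMA, 7.83 in NL-SFMA) and Nectin1 (22.1 and 14.6 FPKM) among the lower. Neuronal adhesion molecules of the immunoglobulin family had a median of 0.22 (0.11 as measured and 0.08 with a pseudocount of 5 FPKM) with 4 of 25 higher and 2 lower. Opcml (12.8 and 29.4 FPKM, 1.20), Negr1 (18.3 and 27.9 FPKM, 0.89) and Cadm2 (13.1 and 20.8 FPKM, 0.75) were higher, and Cadm4, at 261, 286, 305 and 120 FPKM in the 4 libraries, lay at -1.04. Integrins, laminins and genes of focal adhesions lay at a median of -0.05 (0.04 over members of at least 5 FPKM), with 0 of 20 higher and 1 lower, a smaller share than the background on both sides. Giant cadherins and protocadherins had a median of 0.13 (0.31 as measured, 0.06 with a pseudocount of 5 FPKM, and of the other sign, -0.28, over members of at least 5 FPKM) with 2 of 17 higher and 1 lower.

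Growth genes lay on both sides too. Growth cone and actin regulators had a median of 0.11 (-0.03 as measured) with 4 of 40 at least 1.5-fold higher and 6 lower, among them the actin regulators Vasp (13.1 FPKM in L-SFMA, 4.50 in NL-SFMA, -1.28) and Cfl1 (557 and 244 FPKM, -1.02), and on the other side the WAVE complex subunit Nckap1 (58.6 and 112 FPKM, 0.86). Semaphorins and their receptors had a median of -0.19 (-0.09 with no filter on low values) with 6 of 26 lower and 2 higher; the transmembrane semaphorins Sema4d (8.32 and 3.51 FPKM), Sema4c (24.1 and 12.3 FPKM), Sema5b (13.3 and 7.30 FPKM) and Sema6c (42.6 and 23.1 FPKM) were the furthest from the curve, each lower in NL-SFMA. Neuronal microtubule proteins and tubulins (-0.07, 3 of 36 higher and 2 lower) and genes of Eph, Slit, Robo and netrin guidance (-0.04, 1 of 34 higher and 4 lower) lay near the curve. The brain extracellular matrix list had a median of -0.21 (-0.08 with no filter on low values) with 5 of 21 lower and 2 higher, led by the proteoglycan Gpc2 (155 FPKM in L-SFMA, 61.2 in NL-SFMA, -1.12).

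Receptors for neurotransmitters, of which 26 of 38 passed the filter on low values, had a median of 0.55 (0.40 as measured, 0.29 with no filter and 0.26 with a pseudocount of 5 FPKM), with 11 of 26 at least 1.5-fold higher and 0 lower, against the background of 11.4% and 13%. It holds subunits of the GABA-A receptor, a chloride channel. Gabra3 was at 6.34, 5.65, 4.78 and 12.1 FPKM in the 4 libraries (2.52-fold, 2.06 to 3.10). Gabrb2 (3.29 FPKM in L-SFMA and 7.98 in NL-SFMA) was 2.43-fold and Gabra2 (14.1 and 25.9 FPKM) 1.83-fold higher. NL-SFMA was the highest library for each of these 3. Synaptic release and scaffold proteins had a median of 0.07 with 7 of 45 higher and 7 lower, and voltage-gated channels 0.01 with 3 of 30 higher and 0 lower. The channel median was 0.16 as measured, 0.12 with no filter on low values and 0.31 over members of at least 5 FPKM.

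Markers of excitatory cortical neurons had a median of 0.19 with 5 of 26 at least 1.5-fold higher and 1 lower. Mef2c, a transcription factor of maturing cortical neurons, was at 8.48, 19.3, 17.1 and 37.3 FPKM in the 4 libraries, or 2.18-fold higher than in L-SFMA (2.01 to 2.37). Mef2a (8.30 and 15.3 FPKM, 0.89) and Nfib (39.1 and 63.1 FPKM, 0.63) were higher as well, and Neurod2, a factor of postmitotic neurons, was lower (219.6 and 124 FPKM, -0.59). Inhibitory interneuron markers had a median of -0.12 (-0.05 with a pseudocount of 5 FPKM, -0.26 over members of at least 5 FPKM) with 4 of 24 higher and 3 lower. The list was divided, with 11 members above the curve and 13 below, from -1.34 to 0.87. The neuropeptides Npy (12.6 and 3.08 FPKM) and Sst (82.3 and 34.5 FPKM) were the lowest. The summed level of the excitatory list was 1062, 1205, 1358 and 1265 FPKM in the 4 libraries, and that of the interneuron list was 485, 372, 342 and 219 FPKM, so the interneuron sum was lowest in NL-SFMA. Both sums are as measured and still hold the length trend.

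Radial glia and progenitor genes had a median of -0.40 (-0.58 as measured), with 12 of 34 at least 1.5-fold lower and 1 higher. In bulk RNA, fewer cells of a type and less RNA per cell cannot be told apart. Sox1, a factor of the neural stem cell state, was at 24.7, 17.3, 23.5 and 6.64 FPKM in the 4 libraries (3.54-fold lower than in L-SFMA by CPM). Hes6 was at 308, 219, 246 and 79.0 FPKM and Emx1, a factor of the dorsal cortex, at 59.2, 55.1, 64.7 and 21.5 FPKM. For Sox1, Hes6 and Emx1 the 3 other libraries lay together and NL-SFMA was apart below them. The proneural factor Neurog2 (88.1 FPKM in L-SFMA, 31.0 in NL-SFMA) and Insm1 (61.7 and 28.9 FPKM), both taken up after their values were seen, were lower too. Since Neurog2 drives cells out of the progenitor state, the list mixes kinds of genes and its median does not stand for radial glia alone. Vim, an intermediate filament gene of radial glia, was the member above 1.5-fold, at 1088, 535, 486 and 633 FPKM (0.75). Fabp7, another radial glia gene whose values are given below, lay near the curve.

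The Notch pathway, whose list shares Hes6, Dll1 and Hes5 with the radial glia list, had a median of -0.21 (-0.43 as measured) with 9 of 31 at least 1.5-fold lower and 1 higher. The ligand Dll1 was at 9.34, 10.5, 14.8 and 5.24 FPKM in the 4 libraries, and the target Hes5 at 10.5, 7.77, 17.99 and 5.84 FPKM. Both were highest in L-SFMA and lowest in NL-SFMA. Numbl, a Notch inhibitor, was lower (29.9 and 15.8 FPKM, -0.84). Wnt pathway genes had a median of -0.25 with 5 of 33 lower and 1 higher. The adaptors Dvl1 (31.6 and 15.8 FPKM) and Dvl2 (23.9 and 12.8 FPKM), the latter taken up after its values were seen, were lower, and the receptor Fzd3 was higher (16.2 and 31.2 FPKM, 1.06).

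The lists of glial and microglial markers had medians below the curve. Astrocyte markers had a median of -0.36 (-0.58 as measured, -0.17 with a pseudocount of 5 FPKM) with 6 of 17 at least 1.5-fold lower and 0 higher; after Apoe, the inhibitors of differentiation Id3 (107 FPKM in L-SFMA, 33.2 in NL-SFMA, -1.21) and Id1 (41.0 and 17.0 FPKM, -0.77) and the receptor Fgfr3 (16.7 and 8.13 FPKM, -0.94) were furthest from it. Oligodendrocyte lineage markers lay at a median of -0.19 (-0.05 with a pseudocount of 5 FPKM), with 2 of 8 lower and 0 higher, and microglial genes and chemokines at -0.12 (-0.01 with a pseudocount of 5 FPKM), with 4 of 16 lower and 2 higher. Summed over each whole list, radial glia markers were at 3969.9, 2649, 2588 and 1849 FPKM and astrocyte markers at 570, 310, 374 and 213 FPKM. Microglial genes summed to 123, 69.2, 71.2 and 43.8 FPKM, endothelial and pericyte markers to 69.3, 48.3, 61.3 and 43.2 FPKM, and oligodendrocyte markers to 52.6, 43.7, 42.6 and 29.1 FPKM. Each of these sums was lowest in NL-SFMA. The sums are as measured, so the length trend is still in them. Tested members had a median model length of 1723.5 bases for microglia, 1876.5 for endothelial cells and pericytes and 2379.5 for radial glia. For astrocytes it was 2715 and for the oligodendrocyte lineage 3073.5, against 2998.5 for all genes tested. Erythroid genes, of which Hbz was at 0 in L-SFMA and NL-SFMA, summed to 589, 191, 121 and 109 FPKM in the 4 libraries. Their sum was thus far higher in SFMA, the reference of the pair without L. Meningeal markers summed to 8.71, 6.88, 5.46 and 5.23 FPKM. What part these cell types had in the differences of other genes was not tested.

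Immediate early genes, which neurons and other cells transcribe within minutes of a stimulus, had a median of -0.39 (-0.54 as measured, -0.26 with no filter on low values and -0.15 with a pseudocount of 5 FPKM) with 4 of 13 at least 1.5-fold lower and 1 higher. Jun, a subunit of the AP-1 factor, was at 37.4, 17.8, 29.7 and 12.3 FPKM in the 4 libraries (2.42-fold lower than in L-SFMA, 2.23 to 2.63). Ier2 was at 15.2, 8.30, 9.81 and 3.31 FPKM, Ier5 at 112, 73.1, 85.3 and 31.8 FPKM and Btg2, an antiproliferative gene, at 38.0, 29.1, 30.9 and 16.6 FPKM. Within each pair, with L and without, the library with N was the lower for all 4 of these. Many immediate early promoters hold a cAMP response element, the binding motif of CREB, whose full form TGACGTCA reads the same on both strands. It lay within the 250 bases before the start site in 3 of the 8 tested members with a single promoter in the RefSeq table (build GRCr8). Over all genes, each counted by its first listed promoter, it lay in 466 of 27457 (1.7%). The 3 stretches are shown for the motif, which is in capitals. Of the 13 tested members 10 lay below the curve, so lying below it does not set these 3 apart. Whether the motif goes with the differences was not tested.
Jund (chr16:18769772-18770021, minus strand): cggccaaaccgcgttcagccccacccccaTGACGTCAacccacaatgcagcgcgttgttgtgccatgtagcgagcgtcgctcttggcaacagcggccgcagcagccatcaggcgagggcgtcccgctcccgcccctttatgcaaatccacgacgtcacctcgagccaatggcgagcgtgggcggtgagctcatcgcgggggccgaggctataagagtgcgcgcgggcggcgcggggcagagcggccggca
Ier2 (chr19:40399123-40399372, plus strand): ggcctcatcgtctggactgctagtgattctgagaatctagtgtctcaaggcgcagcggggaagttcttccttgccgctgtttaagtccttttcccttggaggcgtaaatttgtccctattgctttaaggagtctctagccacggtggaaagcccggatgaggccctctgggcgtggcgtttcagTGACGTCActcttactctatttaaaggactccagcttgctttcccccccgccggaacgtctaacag
Btg2 (chr13:48087691-48087940, minus strand): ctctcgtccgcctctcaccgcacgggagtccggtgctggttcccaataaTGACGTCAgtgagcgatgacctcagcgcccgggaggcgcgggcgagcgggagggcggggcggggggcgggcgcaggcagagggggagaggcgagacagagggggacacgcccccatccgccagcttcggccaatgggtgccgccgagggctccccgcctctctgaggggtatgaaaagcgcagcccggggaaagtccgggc
The motif starts 66 bases before the start site in Ier2, 201 in Btg2 and 221 in Jund. Jund, another AP-1 subunit, was at 246 FPKM in L-SFMA and 135 in NL-SFMA (-0.48). A match describes these letters and is not a binding site.

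**Figure D4:**
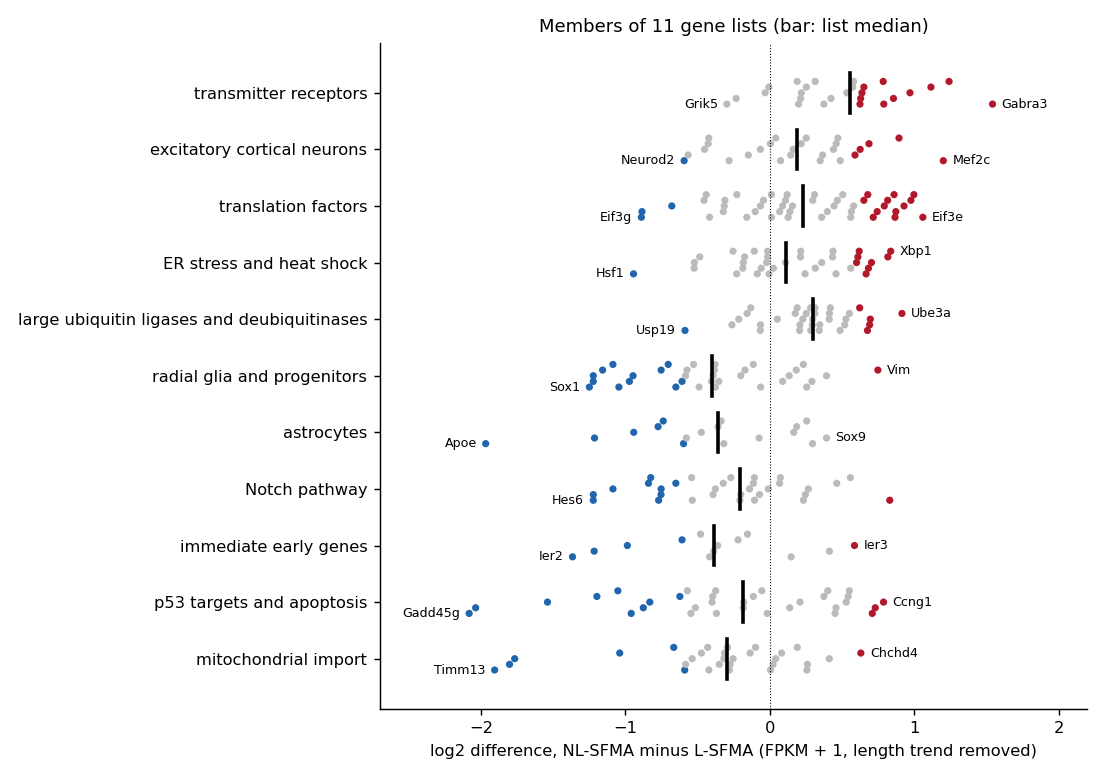
Members of 11 gene lists by log2 difference of NL-SFMA minus L-SFMA (FPKM + 1, length trend removed), red where at least 1.5-fold higher, blue where at least 1.5-fold lower, with the list median as a bar and the outermost member on each side named, but for 1. Transmitter receptors have 11 members on the higher side and 0 on the lower, and radial glia and progenitors 1 and 12.

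Genes of the p53 response and of apoptosis had a median of -0.18 (-0.45 as measured) with 9 of 33 at least 1.5-fold lower and 3 higher, and 5 of the 9 at least 2-fold lower. These 5 were Gadd45g, Bbc3, Bax, Bok and Htra2. Bax, which opens the outer mitochondrial membrane, was at 82.0, 58.2, 60.7 and 15.8 FPKM in the 4 libraries (3.84-fold lower than in L-SFMA), and its relative Bok at 19.6, 14.5, 15.8 and 4.60 FPKM. NL-SFMA was again apart from the other 3 libraries. The list is not of 1 kind: Bcl2l2 (9.87 FPKM in L-SFMA, 4.66 in NL-SFMA, -0.88), which protects from death, was also lower, and Ccng1 (65.9 and 103 FPKM, 0.79), a p53 target, was higher; these and Htra2 were taken up after their values were seen. Antioxidants and metallothioneins had a median of -0.21 (-0.46 as measured) with 7 of 37 lower and 3 higher, among them Prdx5 (43.3 and 20.5 FPKM, -0.97) and Hmox1 (13.6 and 4.97 FPKM, -0.90), while the zinc exporter Slc30a1 was higher (4.85 and 9.11 FPKM, 0.99).

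Genes of endoplasmic reticulum stress and heat shock included 8 of 35 at least 1.5-fold higher and 1 lower, although the median was near the curve at 0.11 (-0.02 as measured and -0.01 with no filter on low values). As measured, 3 were at least 1.5-fold higher and 5 lower, so the excess of higher members appears only with the length trend removed. The transcription factor Xbp1 was at 67.2 FPKM in L-SFMA and 93.5 in NL-SFMA (0.84), the asparagine synthetase Asns at 71.3 and 107 FPKM (0.82) and the chaperone Canx at 119 and 184 FPKM (0.70). The heat shock factor Hsf1 was the member at least 1.5-fold below the curve (7.02 and 2.85 FPKM, -0.94). Translation factors had a median of 0.23 (0.05 as measured) with 13 of 46 higher and 3 lower. Eif3e was at 141, 118, 95.5 and 157 FPKM in the 4 libraries, Eif4ebp2, a repressor of initiation, at 52.8, 78.8, 75.2 and 129 FPKM, Eif2a at 29.8, 25.7, 21.4 and 37.7 FPKM and the release factor Etf1 at 58.7, 53.5, 51.6 and 77.9 FPKM. For these 4 NL-SFMA was the highest library. Another initiation factor subunit, Eif3g, taken up after its values were seen, was lower (89.7 and 36.9 FPKM, -0.89).

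Cytosolic ribosomal protein genes had a median at the curve (0.02, but -0.34 as measured, -0.10 with a pseudocount of 5 FPKM, -0.15 with no filter on low values and -0.07 with a trend over expression removed as well), with 10 of 70 at least 1.5-fold higher and 14 lower. Rps28 (122 FPKM in L-SFMA, 41.8 in NL-SFMA) and Rpl13 (276 and 98.8 FPKM) were at least 2-fold lower, and Rpl39 at least 2-fold higher relative to genes of their length. These are short genes with many pseudogenes, and reads may be split among copies. Ribosomal proteins held 2.77% of the reads in L-SFMA and 2.25% in NL-SFMA. Proteasome and COP9 genes had a median of 0.04 (-0.31 as measured, -0.06 with a pseudocount of 5 FPKM and -0.10 with no filter) with 8 of 45 higher and 2 lower. As measured the counts turned, to 3 higher and 10 lower. The deubiquitinating subunit Psmd14 (70.6 and 110.3 FPKM, 1.03) was above the curve and Cops9 below. Large ubiquitin ligases and deubiquitinases had a median of 0.30 (0.48 as measured) with 5 of 34 higher and 1 lower, led by Ube3a, the ligase lost in Angelman syndrome, at 5.81, 9.79, 11.7 and 25.5 FPKM in the 4 libraries (2.17-fold, 2.04 to 2.32).

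Genes of the cell cycle and DNA replication had a median of 0.16 (-0.04 as measured) with 4 of 44 at least 1.5-fold higher and 2 lower, fewer on each side than the background. As measured, 5 were higher and 7 lower. Birc5, which encodes survivin, was the furthest from the curve (8.98 FPKM in L-SFMA and 1.83 in NL-SFMA, -1.49). Ccne2 (4.26 and 7.81 FPKM, 0.87) and Tyms (26.5 and 43.2 FPKM, 0.76) were higher. Targets of Hippo, YAP and SRF had a median of 0.08 with 5 of 27 higher and 0 lower (2 and 2 as measured). Histone genes had a median of -0.36 (-0.60 as measured) with 2 of 13 lower and 1 higher, among them H2az2 (59.4 and 21.9 FPKM, -1.18) and the linker histone gene H1f10 (381 and 148 FPKM, -0.97). Chromatin regulators, with a median model length of 6876 bases, lay at the curve (-0.01, 1 of 53 higher and 4 lower).

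N-SFMA against SFMA gives the same question without L, in 2 libraries that NL-SFMA against L-SFMA does not use. Treated the same way, 139 of 11993 genes (1.16%) were at least 2-fold higher in N-SFMA and 155 (1.29%) lower, fewer than the 271 and 355 in the presence of L. Over the 11663 genes tested in both pairs the differences correlated at r = 0.33 across genes, which are not independent replicates; with 1 library per hydrogel, N and any other difference between the cultures cannot be told apart. Of 237 genes called higher with L, 185 (78.1%) lay above 0 without L, against 51.2% of all genes, and of 353 called lower 278 (78.8%) lay below 0, against 48.8%. Their medians without L were 0.40 and -0.27, beside 0.01 for all genes. Most genes called in the pair with L thus lay on the same side in the pair without it. The standard deviation over all genes was 0.52 with L and 0.41 without.

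Genes past 2-fold in both pairs were 24 higher, which is 10.1% of the 237 genes called with L and 19.8% of the 121 called without, and 15 lower, which is 4.25% of 353 and 11.6% of 129. Over all 11663 genes, 2.03% were called higher and 3.03% lower with L, and 1.04% and 1.11% without. Most of the 24 carry an identifier or a pseudogene name, and some rest on few reads, such as Eif3i-ps1 with 2 in L-SFMA and 7 in NL-SFMA. Over all 1116 tested rows of that kind the median with L was 0.33. Spp1 had a symbol but lay below 5 FPKM in L-SFMA and NL-SFMA, and 7 met the rule for naming. Mef2c lay 1.20 above the curve with L and 1.10 without. Zyg11b, a substrate receptor of a ubiquitin ligase, was at 13.1, 29.8, 30.4 and 62.8 FPKM in the 4 libraries (1.23 with L, 1.22 without). The RING domain genes Lonrf2 (7.71, 18.3, 17.2 and 35.7 FPKM) and Rnf24 (19.7 and 31.7 FPKM), the sialyltransferase St8sia3 (9.56, 17.2, 20.6 and 32.3 FPKM), Smim17 and Frg1l1 were the others. In all 7 the level was lowest in SFMA and highest in NL-SFMA, with N-SFMA and L-SFMA between them.

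Downward, 10 of the 15 shared genes met the rule and the 8 largest are named. Erf, a repressor of the ETS family, was at 11.1, 3.87, 5.92 and 1.66 FPKM in the 4 libraries (-1.33 with L and -1.39 without). Jun (-1.22 and -1.17), the splicing factor Srsf9 (-1.28 and -1.31), Tmem134 (-1.21 and -1.11), the BMP antagonist Nbl1 (-1.15 and -1.41) and the acyl-CoA binding protein gene Dbi (-1.06 and -1.45) had similar sizes in both pairs. Tyrobp (-1.06 and -1.14) and Lyz2 (-1.04 and -1.42), genes of microglia and other myeloid cells, complete the 8. Tyrobp was at 15.7, 4.29, 10.3 and 3.20 FPKM in the 4 libraries, so that here each library with N was below each library without it.

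**Figure D5:**
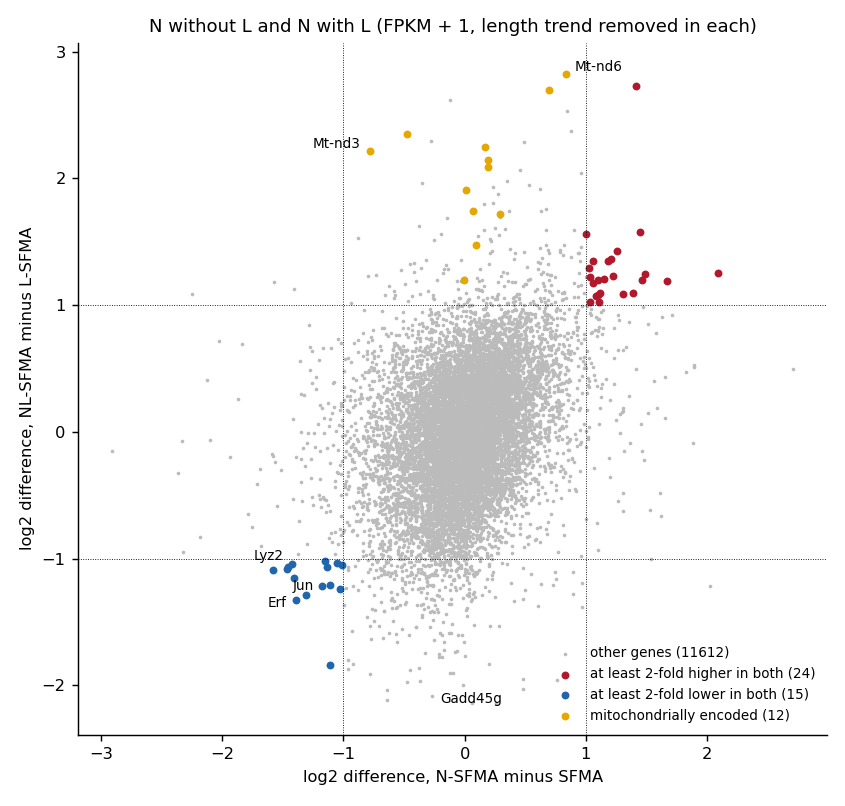
Each point is 1 of 11663 genes, by log2 difference of N-SFMA minus SFMA and of NL-SFMA minus L-SFMA (FPKM + 1, length trend removed in each pair), with dotted lines at 2-fold. The 24 red and 15 blue genes are past 2-fold in both pairs, and the 12 mitochondrially encoded genes lie high on the vertical axis and between -0.78 and 0.84 on the horizontal one.

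The medians of the lists with L and without it, set side by side, were alike for some lists and not for others. Mitochondrially encoded genes had a median of 2.12 with L and 0.13 without, where Mt-nd6 was at 0.84 and Mt-nd3 at -0.78. Radial glia and progenitor markers had medians of -0.40 and -0.36. With L 12 of the 34 were at least 1.5-fold lower and without L 11, and 3 members (Sox3, Tnc and Notch3) were so in both pairs, which is 3 of the 12 and 3 of the 11. Sox1 (-1.25 and -0.12), Emx1 (-1.16 and 0.18) and Neurog2 (-1.04 and 0.35) were past 1.5-fold with L and not without it, and Fabp7, a lipid carrier of radial glia, lay at -0.06 with L and -2.10 without it. Eomes, a factor of intermediate progenitors, was at -0.35 and 1.20. Cell cycle genes were at 0.16 with L and -0.48 without, Hippo, YAP and SRF targets at 0.08 and -0.27, erythroid genes at 0.29 and -1.10, and transmitter receptors at 0.55 and 0.35. Gadd45g (-2.08 and -0.27), Bax (-1.54 and -0.28), Tmsb10 (-1.74 and -0.08) and Marcksl1 (-1.65 and 0.00) had unlike values in both pairs, as did L1cam (-0.19 and 0.68). With 1 library per hydrogel, whether the difference between NL-SFMA and L-SFMA departs from that between N-SFMA and SFMA was not tested. Vim, Neurog2, Fabp7, Eomes, Sox3, Tnc and Notch3 were taken up after their values were seen.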

How the data were processed

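Poly(A) RNA of 4 cultures was sequenced, 1 library per hydrogel, from 1.5 µg of RNA with the NEBNext Ultra kit, per the labels' protocols. The authors deposited for each library a read count and an FPKM per gene, listed by Ensembl identifier and symbol. Per the submitters' processing notes, HISAT2 and HTSeq 0.13.5 were used, and the builds mRatBN7.2 and GRCh38 are named without a role; no source used here gives the settings or the strand. Gene model lengths were recovered from the deposited count and FPKM columns and were whole to within 1e-06 bases. From these, log2((FPKM + 1)/(FPKM + 1)) was computed, which understates the change of low genes, and a lowess curve (span 0.3, 3 robust rounds) on log2 length was subtracted, with Python 3.11.15 and statsmodels 0.14.6. The steps were tested on simulated data. CPM ratios carry exact (Clopper-Pearson) 95% intervals from scipy 1.17.1, conditional on the sum of both counts. Genes 2-fold from the curve were counted; list members were counted at 1.5-fold, for 46 of 48 lists with at least 5 members tested (1586 of 1666 listed symbols were found, and 34 stand in 2 or more lists).

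Named genes needed a symbol that is neither an identifier nor a pseudogene name and 5 FPKM in either library. Chosen were 12 genes each way by size of difference, up to 4 members per list described, up to 8 genes each way past 2-fold in both pairs, and 8 genes of adhesion and growth (Cdh2, Ctnnb1, L1cam, Ncam1, Dcx, Gap43, Map2, Tubb3). Mt-atp8, Ndufb5, Cox7b and Rpl13, and the genes so marked in the text, were taken up after their values were seen. Some list members are not reported here. The comparison, the members and the lists were chosen with earlier results of these data known. Alternatives were another span, 20 length bins in place of the curve, no removal, a further trend over expression, other pseudocounts and filters, and scaling with edgeR 4.0.16 (TMM), DESeq2 1.42.0 size factors or without mitochondrially encoded genes. No genome was used, and promoter sequences are RefSeq's.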

Additional observations from a re-analysis of the deposited data

How the results depend on the processing

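The 271 higher and 355 lower genes became 108 and 851 with no removal of the length trend, 493 and 708 with a pseudocount of 0.1 FPKM, 51 and 145 with a pseudocount of 5 FPKM, and 174 and 551 with no filter on low values. Under the same settings the 24 genes higher in both pairs became 9, 65, 3 and 11, and the 15 lower in both became 67, 59, 1 and 33. The other 8 settings kept these counts within 1.5 times. TMM moved the median of all genes as measured by 0.11 and DESeq2's size factors by 0.15, and with the length trend then removed 265 and 364, or 254 and 364, genes were called. Scaling without mitochondrially encoded genes gave 278 and 370. Of the 17 lists with a median of at least 0.2 in size, 0 changed sign under any of the 12 settings, though 14 moved by over 1.5 times under at least 1 of them, and of the 29 smaller medians 12 changed sign. Radial glia and immediate early genes traded places as the lowest list under 5 of the settings, and complex I was lowest under 2 more. Transmitter receptors were the highest nuclear list under 9, and large ubiquitin ligases under the other 3. Of 46 list medians, 31 moved by over 0.1 with no removal of the trend, 17 with no filter, 11 with a pseudocount of 5 FPKM and 0 under the 3 scalings. Of 768 values of 64 named genes 602 stayed within the counting interval and 166 moved, with 0 changes of sign among those called. With no replicate library, the spread between cultures is not known and limits every value here, and depth limits genes with few reads such as Pfdn6 and Y_RNA. No paired analysis was possible because there is 1 library per hydrogel and the labels give no replicate numbers.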

Other observations

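Genes grouped by the letters of their symbol gave 136 families with at least 10 members tested. The highest medians with the length trend removed were those of the Cdh cadherins (0.36, 3 of 12 at least 1.5-fold higher and 1 lower), the Syt synaptotagmins, calcium sensors of vesicle release (0.34, 4 of 12 higher and 0 lower, led by Syt4 at 1.09), the Alg enzymes of N-glycan assembly (0.34, 2 of 12 higher), the Exoc subunits of the exocyst, which tethers vesicles to the plasma membrane (0.31, 0 of 10 past 1.5-fold either way, from 0.07 for Exoc7 to 0.47 for Exoc6b), and St (0.27, 5 of 17 higher, led by St8sia3), a letter group that holds sialyltransferases beside unrelated genes. Each was also above 0 as measured. In the pair without L the medians were 0.04 for Cdh, 0.32 for Syt, 0.10 for Alg, 0.20 for Exoc and 0.28 for St.

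The lowest medians were those of the proline-rich Prr genes (-0.59, 6 of 11 lower and 1 higher), the Exosc subunits of the RNA exosome (-0.51, 5 of 10 lower and 0 higher), the Sox transcription factors (-0.45, 4 of 14 lower and 1 higher, from Sox1 at -1.25 to Sox6 at 0.68), the Coq enzymes of ubiquinone synthesis (-0.44, 2 of 11 lower and 1 higher) and the Col collagens (-0.42, 5 of 12 lower, from -0.99 for Col16a1 to -0.17 for Col5a2). Over all genes tested, 11.4% were at least 1.5-fold higher and 13% lower.

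Rows with an identifier or a pseudogene name in place of an assigned symbol had a median of 0.33 over 1116 tested, with 378 at least 1.5-fold higher and 98 lower. The 111 of these rows with a pseudogene ending in their name had a median of 0.32 (0.00 as measured), with 37 higher and 10 lower. They are a part of the 1116 and not a separate group. Among genes past 2-fold in opposite directions in both pairs, the embryonic globin Hbe1 had 232, 22, 9 and 18 reads in the order SFMA, N-SFMA, L-SFMA and then NL-SFMA. Arpc5l-ps1 had 470, 99, 52 and 104 reads in the same order, and in both genes SFMA was the library apart from the other 3. The ubiquitin pseudogene Ubb-ps1 was past 2-fold higher in both pairs, at 156, 284, 146 and 382 FPKM in that order, and its reads may come from its parent gene.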
